A study of Rattus norvegicus with 32 samples.

Results

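Arc, Npas4, Bdnf, Homer1, Nptx2 and Plk2 are genes whose transcripts neurons make within minutes to hours of synaptic activity and whose products act at synapses or, for Npas4, on the genes of synapses. They were chosen by gene symbol in the platform annotation, with earlier results of these data known. Of these 6 genes, 5 had a named probe, 1 each, among the 22523 probes of an Illumina rat expression beadchip. No probe was named Homer1 here, and that gene is not described further. Of the 5, Arc, Npas4, Bdnf and Nptx2, passed the detection filter and were tested (4 genes), and Plk2 did not.

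The samples were male Sprague-Dawley rats, an outbred strain, killed 1 h after 1 dose (20 mg/kg) of methamphetamine (METH), a stimulant drug that makes nerve endings release dopamine, or after saline. Total RNA of the nucleus accumbens, the ventral part of the striatum, was hybridised on 5 METH arrays and 4 saline arrays of a series of 32. METH arrays 1 and 2 and saline arrays 1 and 2 lay on slide 1, and METH arrays 3, 4 and 5 and saline arrays 3 and 4 on slide 2. The labels state 5 rats per group and do not tie arrays to animals, so the spread behind every p-value is that between arrays, which may be technical. The mean deposited intensity was 187.9 to 231.4 on METH arrays and 164.3 to 187.8 on saline arrays, with 41.9% to 47.3% and 41.5% to 44.5% of probes above background. All 15 probed genes of the list of striatal projection neuron markers passed the detection filter, with Drd1, Drd2 and Adora2a above background on every array. The 23 arrays of later times were not analysed here, since their rows do not pair with the probe names (rank correlation with the 1 h arrays of -0.00947 to 0.000616).

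These genes answer calcium entry through synaptic receptors and channels, which activates the factor CREB and others already present in the neuron. Arc protein moves to active dendrites and drives AMPA-type glutamate receptors off the surface. Npas4 is a neuron-restricted transcription factor that pairs with ARNT proteins and acts on genes that include Bdnf. BDNF is a secreted neurotrophin that signals through the receptor TrkB, and in the striatum much of the protein is carried in by axons from the cortex, where its transcript is made. Nptx2 is a secreted pentraxin that clusters AMPA receptors on synapses, and Plk2 is a kinase that weakens overactive synapses by acting on the spine protein SPAR.

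The promoter windows of the members are shown because these transcripts are known to share activity-responsive control. The RefSeq table (build GRCr8) held windows of 300 bases, from 250 before to 50 after a transcript start, for Npas4, Bdnf, Nptx2 and Plk2. Bdnf had 6 of them, for its alternative starts, and the deposited data do not say which of these starts the Bdnf probe reads. Capitals mark the letters TGACG, the core of the cyclic AMP response element bound by CREB, or TCGTG, the core bound by NPAS4 with ARNT, on either strand. The windows below lie at chr1:211716053-211716352 (minus strand) for Npas4, chr3:116637608-116637907 (plus strand) for Bdnf, chr12:15161996-15162295 (minus strand) for Nptx2 and chr2:43702286-43702585 (plus strand) for Plk2.
Npas4: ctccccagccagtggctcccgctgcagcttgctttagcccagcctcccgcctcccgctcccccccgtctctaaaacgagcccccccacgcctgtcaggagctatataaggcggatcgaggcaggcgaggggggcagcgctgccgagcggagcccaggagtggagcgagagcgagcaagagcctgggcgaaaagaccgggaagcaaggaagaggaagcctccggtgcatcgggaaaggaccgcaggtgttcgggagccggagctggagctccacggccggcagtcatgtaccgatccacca
Bdnf: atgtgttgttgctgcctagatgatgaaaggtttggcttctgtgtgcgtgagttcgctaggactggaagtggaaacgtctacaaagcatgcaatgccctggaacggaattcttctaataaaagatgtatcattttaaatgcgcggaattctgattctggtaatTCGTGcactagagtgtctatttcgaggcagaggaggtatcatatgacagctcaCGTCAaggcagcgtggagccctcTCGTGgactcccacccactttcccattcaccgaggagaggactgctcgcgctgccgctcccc
Nptx2: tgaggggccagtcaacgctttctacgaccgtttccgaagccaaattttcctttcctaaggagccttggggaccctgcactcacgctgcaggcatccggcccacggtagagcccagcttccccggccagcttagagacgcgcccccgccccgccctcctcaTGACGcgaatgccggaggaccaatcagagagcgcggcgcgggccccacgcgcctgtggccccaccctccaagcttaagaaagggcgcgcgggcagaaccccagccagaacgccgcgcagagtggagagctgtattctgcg
Plk2: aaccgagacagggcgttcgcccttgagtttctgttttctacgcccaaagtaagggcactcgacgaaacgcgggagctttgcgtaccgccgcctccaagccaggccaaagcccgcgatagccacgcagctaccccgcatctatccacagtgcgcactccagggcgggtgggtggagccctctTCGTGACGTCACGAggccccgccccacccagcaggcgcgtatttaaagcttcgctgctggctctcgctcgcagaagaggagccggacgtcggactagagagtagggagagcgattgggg
Of 33469 such windows in the table, 21.2% held TGACG, 17.0% held TCGTG and 1.83% held the whole palindromic element TGACGTCA. The Plk2 window held TGACGTCA, starting 66 bases before the transcript start, with a TCGTG overlapping each of its ends. The Bdnf window shown was the 1 of the 6 with TGACG, which reads CGTCA on the printed strand and starts 35 bases before the transcript start, and it also held TCGTG at 88 and 12 bases before it. In all, 3 of the 6 Bdnf windows held TCGTG. The Nptx2 window held TGACG at 90 bases before the start, and neither motif's letters were in the Npas4 window. A match of letters is not a bound site.

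**Figure D1:**
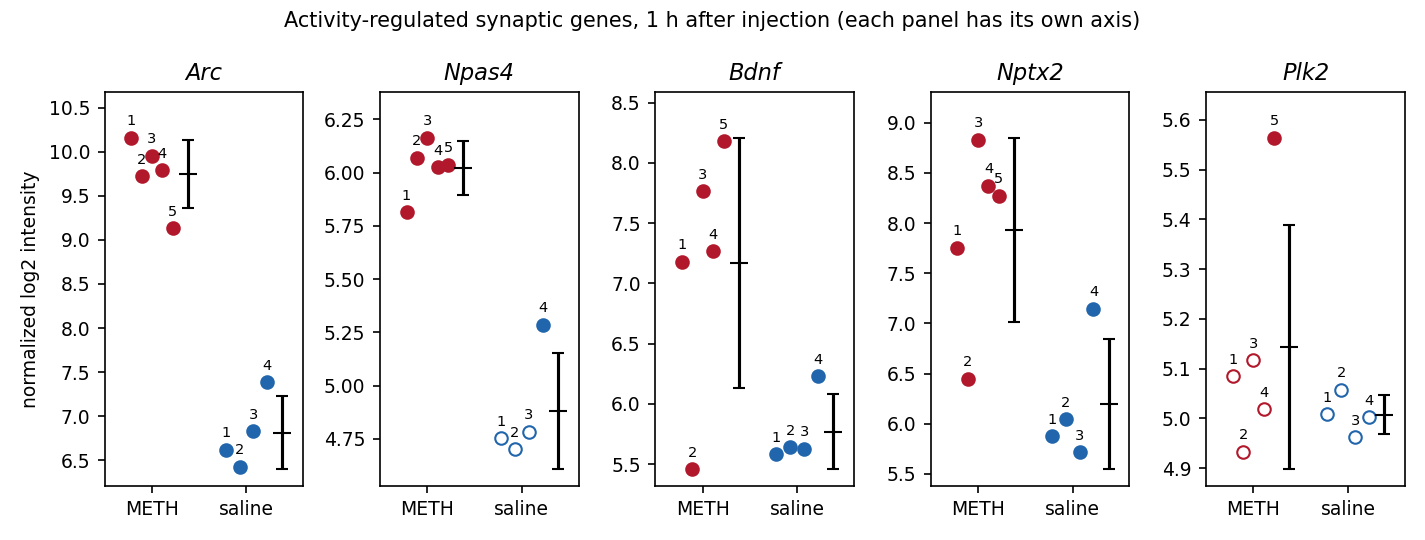
Normalized log2 intensity (vertical axes, 1 scale per gene) of each of the 5 METH arrays (red) and 4 saline arrays (blue), with array numbers; filled points were above background, open points were not, and bars show the mean and SD. All METH points of Arc and Npas4 lie above all saline points, whereas METH array 2 lies below every saline array for Bdnf and below saline array 4 for Nptx2.

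Arc, the synaptic protein gene, was the member with the largest difference. Its deposited intensity was 1162, 999, 1165, 849 and 555 on METH arrays 1 to 5, against 84.0, 59.9, 89.6 and 125.7 on saline arrays 1 to 4. Every METH array stood far above every saline array, with METH array 5 the lowest of its group and saline array 4 the highest of its own. After normalization the mean was 9.75 ± 0.38 on the log2 scale with METH and 6.81 ± 0.41 with saline (SD, n = 5 and 4). Arc rose 7.67-fold, with a 95% interval of 5.48-fold to 10.7-fold (limma, log2 fold change 2.94 ± 0.22 SE, adjusted p = 1.77e-05). Among the 9987 probes tested it had the 2nd highest rise. The exact permutation test gave p = 0.00794 (two-sided), the smallest that 5 arrays against 4 allow.

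Npas4, the transcription factor gene, rose as well, with a saline signal that was mostly not above background. Its deposited intensity was 46.2, 65.5, 66.4, 47.3 and 49.3 on METH arrays 1 to 5, against 0.6, -2.0, 1.9 and 18.2 on saline arrays 1 to 4. It was above background on 5 of 5 METH arrays and on 1 of 4 saline arrays, saline array 4, and the groups did not overlap. The normalized mean was 6.02 ± 0.13 with METH and 4.88 ± 0.27 with saline (SD, log2 scale, n = 5 and 4). Npas4 rose 2.20-fold on this scale (limma, log2 fold change 1.14 ± 0.14 SE, adjusted p = 0.00164; exact permutation p = 0.00794). The size depends on how the saline values near background are treated. With each saline array raised to at least its own lowest signal above background it was 1.64-fold (log2 0.72), and with the deposited values floored at 16 and quantile-normalized the log2 fold change was 1.51. The METH arrays lay close together, between 0.93 and 1.28 above the saline mean. Within slide 2 the log2 fold change was 1.04 and did not pass (adjusted p = 0.131).

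Bdnf, the neurotrophin gene, was high on 4 METH arrays and low on METH array 2. Its deposited intensity was 143.1, 36.2, 239.0, 131.1 and 267.9 on METH arrays 1 to 5, against 32.7, 29.5, 30.6 and 50.0 on saline arrays 1 to 4. All 9 values were above background, and 4 of 5 METH arrays exceeded every saline array. METH array 2 lay within the saline range in deposited intensity and below it after normalization. The normalized mean was 7.17 ± 1.04 with METH and 5.77 ± 0.31 with saline (SD, log2 scale, n = 5 and 4). The difference of 2.64-fold, with a 95% interval of 1.39-fold to 4.99-fold before adjustment, did not pass (limma, log2 fold change 1.40 ± 0.42 SE, adjusted p = 0.227; exact permutation p = 0.0635). Without METH array 2, the lowest METH array for this gene, Bdnf passed, with a log2 fold change of 1.82 ± 0.23 SE (adjusted p = 0.00159). The log2 fold change was 0.71 within slide 1, where METH array 2 lay, and 1.81 within slide 2 (adjusted p = 0.909 and 0.103).

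Nptx2, the pentraxin gene, was likewise high on 4 METH arrays and low on METH array 2. Its deposited intensity was 219.2, 90.4, 520.2, 298.0 and 288.5 on METH arrays 1 to 5, against 43.6, 43.1, 33.3 and 105.2 on saline arrays 1 to 4. METH array 2 lay below saline array 4 and above the other saline arrays, and the remaining 4 METH arrays exceeded every saline array. The normalized mean was 7.93 ± 0.92 with METH and 6.20 ± 0.65 with saline (SD, log2 scale, n = 5 and 4). The difference of 3.34-fold, with a 95% interval of 1.76-fold to 6.32-fold before adjustment, did not pass over all probes (limma, log2 fold change 1.74 ± 0.42 SE, adjusted p = 0.135), while the exact permutation test of this gene alone gave p = 0.0317. Without METH array 2, the lowest METH array for this gene too, the log2 fold change was 2.11 ± 0.30 SE and passed (adjusted p = 0.00335). Within slide 1 it was 1.14 and within slide 2 it was 2.06 (adjusted p = 0.597 and 0.131).

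Plk2, the kinase gene, gave signals near background. Its deposited intensity was 16.7, 11.5, 18.0, 12.1 and 29.3 on METH arrays 1 to 5, against 12.3, 12.1, 9.3 and 9.8 on saline arrays 1 to 4. It was above background on METH array 5 and on no other array, so it was not tested with the others and no fold is given. An exact permutation test of its normalized values gave p = 0.357, and of its deposited intensities p = 0.0952. A difference was not detectable at this signal.

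Of the 4 members tested, 2 rose over all probes, Arc and Npas4, and none fell, where 0.491% of all 9987 probes tested rose and 0.03% fell. Both also had every METH array above every saline array, as did 1.96% of all probes tested, where 2.29% had every METH array below every saline array. The median log2 fold change of the 4 was 1.57, against -0.0228 over all probes tested, and a gene such as Npas4 could enter the test through its METH arrays alone. Since the members were chosen with earlier results known, these comparisons with all probes are no independent support. Without METH array 2 all 4 rose, where 1.86% of all probes did. Bdnf and Nptx2 were lowest among METH arrays on that array, so their passing without it rests on their own values and is no added support. With slide as a block the log2 fold changes were 2.93 for Arc, 1.12 for Npas4, 1.31 for Bdnf and 1.64 for Nptx2, and the last had an adjusted p of 0.0509.

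The members differed in how much they varied between METH arrays. The SD over the 5 METH arrays was 0.13 for Npas4 and 0.38 for Arc, and 1.04 for Bdnf and 0.92 for Nptx2, on the log2 scale. Arc was highest on METH array 1 and lowest on METH array 5, at 3.35 and 2.32 above the saline mean. Bdnf was highest on METH array 5 at 2.41 and lowest on METH array 2 at -0.31. Nptx2 was highest on METH array 3 at 2.64 and lowest on METH array 2 at 0.25. On METH array 2, then, Arc stood at 2.91 and Npas4 at 1.19 above the saline mean, values within the range of the other METH arrays. Among the saline arrays, array 4 was the highest for Arc (0.57), Npas4 (0.41), Bdnf (0.46) and Nptx2 (0.95).

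The median of the markers of cortical glutamatergic neurons, like Bdnf and Nptx2, was lowest on METH array 2 among the METH arrays, and single markers differed in this. Of 15 such markers, 10 had a probe and 7 passed the filter. Their median difference from the saline mean was 0.50, -0.17, 0.90, 0.90 and 1.30 on METH arrays 1 to 5, against -0.087, 0.025, -0.23 and 0.23 on saline arrays 1 to 4. All 7 were above background on METH arrays 1, 3, 4 and 5, but 3 on METH array 2, and 4, 5, 3 and 6 on saline arrays 1 to 4. The summed deposited intensity of the 10 probes was 3137 to 3491 on METH arrays 1, 3, 4 and 5 and 4598 on METH array 2, against 2753 to 3005 on saline arrays, and Lamp5 alone gave 3990 of the 4598. The vesicular glutamate transporter gene Slc17a7, which cortical projection neurons express, had intensities of 164.0, -3.6, 357.3, 229.0 and 188.5 on METH arrays 1 to 5, against 7.7, 24.7, -1.8 and 67.0 on saline arrays 1 to 4. It was not above background on METH array 2 or on saline arrays 1 and 3. Its normalized difference from the saline mean was -0.709 on both METH array 2 and saline array 3, so its lowest array is not resolved. Among saline arrays it was highest on array 4, as Bdnf was. Neurod6, a transcription factor gene of cortical pyramidal neurons, had intensities of 228.9, 0.2, 309.2, 234.1 and 319.7 on METH arrays, against 41.0, 35.1, -4.0 and 140.7 on saline arrays. Lamp5, a membrane protein gene, went the other way, at 0.27 above the saline mean on METH array 2 and -0.31, -0.82, -0.39 and -0.52 on METH arrays 1, 3, 4 and 5 (log2 fold change -0.35 ± 0.18 SE, adjusted p = 0.513). Slc17a6, another vesicular glutamate transporter gene, was lowest on METH array 1 at 0.11 and stood at 0.48 on METH array 2 and 0.55 to 1.20 on the others. Slc17a6, Lamp5 and Fezf2 were above background on every array, also where Slc17a7 was not, and all are part of the median. How specific the 7 markers are to cortical neurons was not tested. None of the 7 markers passed over all probes (limma), and 5 had an unadjusted p under 0.05. The share of all probes at that cut is not given, so such counts here and below are not read as results. Slc17a7 was above background on 4 of 5 METH arrays and 2 of 4 saline arrays.

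With the cortical marker median of each array as a covariate, the log2 fold change of Bdnf was 0.16 ± 0.21 SE (adjusted p = 0.865) and that of Nptx2 0.62 ± 0.31 SE (adjusted p = 0.566). In the same fit Arc rose by 3.06 ± 0.29 SE (adjusted p = 8.74e-05) and Npas4 by 1.06 ± 0.19 SE (adjusted p = 0.0200). The covariate itself differed between the groups, so that fit cannot separate it from METH fully. In tissue RNA of this kind a larger share of cells of a type and more transcript per cell cannot be told apart, and the part of cortical tissue in the values of Bdnf and Nptx2 was not tested beyond this fit. Of 15 tested markers of striatal projection neurons 1 had a log2 fold change above 0, where 45.7% of all probes tested did. The median of the 15 was -0.45, against -0.0228 over all probes tested. None of the 15 passed (limma, 9 at an unadjusted p under 0.05, a count given without the share of all probes). Their median difference from the saline mean was -0.16 to -0.81 on METH arrays and -0.17 to 0.12 on saline arrays. The part of the striatal markers in the members' values was not tested. Astrocyte markers had a median difference of -0.25 to 0.22 on METH arrays and -0.097 to 0.14 on saline arrays. Of 14 tested pan-neuronal markers 11 had log2 fold changes above 0, where 45.7% of all probes tested did after normalization. None of the 14 passed (limma, 2 at an unadjusted p under 0.05). Their median difference from the saline mean was -0.054 to 0.49 on METH arrays and -0.11 to 0.088 on saline arrays. The summed deposited intensity of the pan-neuronal markers, which is not scaled between arrays, was 29985 to 40411 on METH arrays and 22369 to 24014 on saline arrays. These sums did not overlap, but the mean intensity of all probes did not either (187.9 to 231.4 against 164.3 to 187.8). In unscaled intensities 83% of all probes tested had log2 fold changes above 0. The part of these sums in the members' values was not tested. The summed intensity of the striatal markers was 11618 to 26735 on METH arrays and 18346 to 25213 on saline arrays.

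**Figure D2:**
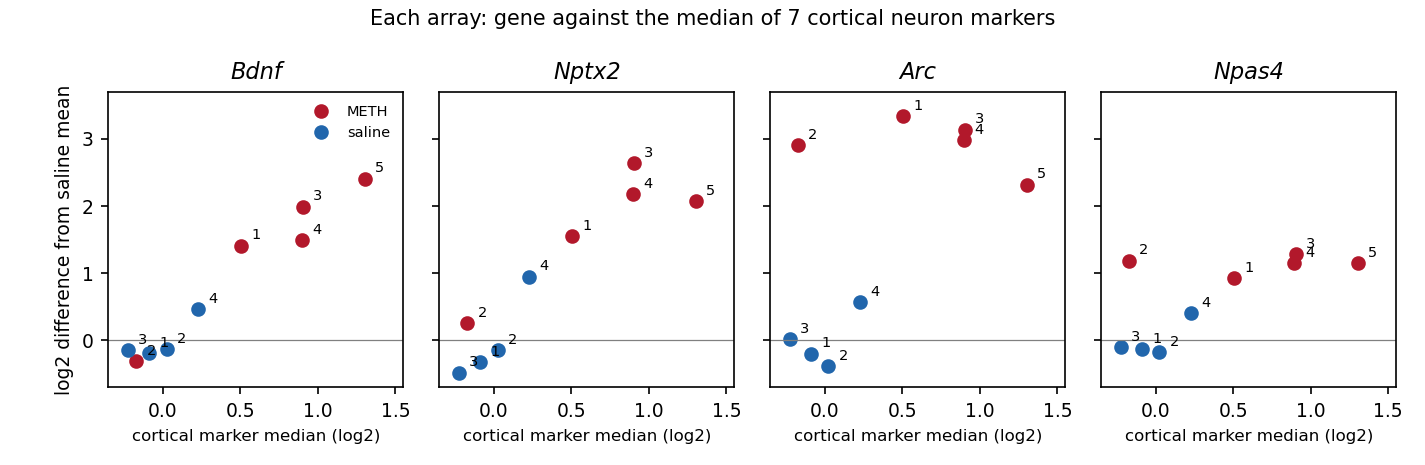
Log2 difference of each gene from its saline mean (vertical axis) against the median log2 difference of 7 cortical neuron markers (horizontal axis) on each array, METH in red and saline in blue, with array numbers. For Bdnf and Nptx2, METH array 2 lies at or near the saline arrays on both axes, whereas for Arc and Npas4 it lies with the other METH arrays on the vertical axis, at 2.91 and 1.19.

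**Figure D3:**
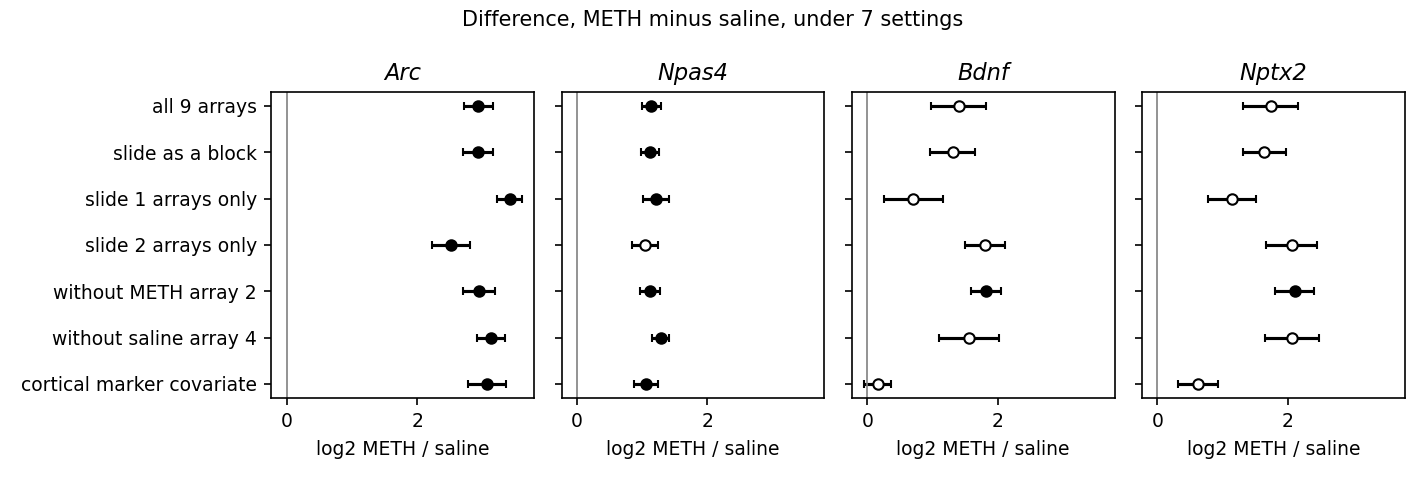
Log2 fold change of METH over saline (horizontal axis, points, with bars of 1 SE) for the 4 members tested, fitted on all 9 arrays and in 6 other ways; filled points had an adjusted p under 0.05. Arc passed in all 7, Npas4 in all but the slide 2 arrays, and Bdnf and Nptx2 without METH array 2, with Bdnf at 0.16 under the cortical marker covariate.

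Among the lists of genes related to the members, Plat and Nfil3 passed over all 9 arrays, and more did without METH array 2. Of 18 tested genes of Arc's partners and of AMPA receptor traffic none passed (limma, 1 at an unadjusted p under 0.05), with a median log2 fold change of 0.17 and a range of -0.20 to 0.52. The highest was Dnm1, the dynamin that pinches off endocytic vesicles and that Arc recruits with endophilin (0.52 ± 0.18 SE, adjusted p = 0.301). Camk2a, a kinase of the postsynaptic density, had 0.23, the AMPA receptor subunit gene Gria3 0.36 and Cacng2, which encodes the AMPA receptor partner stargazin, 0.25. Of 3 tested genes of the list of bHLH-PAS factors and partners of Npas4 none passed (limma, 1 at an unadjusted p under 0.05). Neither Arnt nor Arnt2 was among the 3. Npas2, a paralogue of the clock factor CLOCK, had 0.38 (adjusted p = 0.371), Bmal1 0.28 and Maged1 -0.029.

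Of 12 tested genes of BDNF and TrkB signalling 1 rose and none fell, where 0.491% of all probes tested rose and 0.03% fell. The median of the 12 was -0.053, against -0.0228 over all probes tested. The 1 was Plat, which encodes tissue plasminogen activator, a secreted protease that through plasmin cleaves proBDNF to mature BDNF. Its deposited intensity was 649.4, 570.1, 495.9, 305.1 and 464.2 on METH arrays 1 to 5, against 273.9, 194.2, 201.8 and 133.6 on saline arrays 1 to 4. Every METH array lay above every saline array, as for 1.96% of all probes tested. METH array 2 was included, where Bdnf did not lie above them. Plat rose 2.00-fold (limma, log2 fold change 0.997 ± 0.19 SE, adjusted p = 0.0351), and the log2 fold change was 1.17 with the cortical marker covariate (adjusted p = 0.0399) and 1.04 with slide as a block (adjusted p = 0.00559). It did not pass without METH array 1 or 3 or saline array 2, 3 or 4 (adjusted p = 0.0666 to 0.118), nor within slide 2 (0.193). Ngfr, the p75 receptor of proneurotrophins, had a log2 fold change of -1.11 ± 0.30 SE (adjusted p = 0.178). The TrkB gene Ntrk2 had 0.31 ± 0.23 SE (adjusted p = 0.653), and Nsmf, a messenger from synapse to nucleus, 0.45 (adjusted p = 0.463).

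None of 11 tested Homer partners and genes of group I metabotropic glutamate receptor signalling passed (limma, 2 at an unadjusted p under 0.05), with a median of 0.23. The scaffold genes Dlgap1, Dlgap4 and Dlgap3 had 0.66, 0.48 and 0.30 (adjusted p = 0.421, 0.451 and 0.545), and the receptor gene Grm5 -0.016. None of 5 tested pentraxin partners passed (limma, 2 at an unadjusted p under 0.05). Nptxr, the membrane-bound pentraxin with which Nptx2 assembles, had 0.61 ± 0.25 SE (adjusted p = 0.390), with intensities of 117.1, 46.7, 135.0, 76.1 and 106.5 on METH arrays 1 to 5, against 40.1, 53.9, 43.2 and 42.6 on saline arrays. On METH array 2 Nptxr too was within the saline range in deposited intensity and below it after normalization, and it was above it on the other METH arrays. Of the list of Polo-like kinases and Plk2 substrates 5 genes were tested, with no Polo-like kinase among them. None passed (limma, 0 at an unadjusted p under 0.05, median 0.020), and Sipa1l1, which encodes SPAR, had 0.020.

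All 16 tested genes of the other activity-regulated effectors had log2 fold changes above 0, where 45.7% of all probes tested lay above 0. Their median was 0.53, and 9 had an unadjusted p under 0.05 but 1 passed (limma), where 0.521% of all probes tested passed in either direction. The share of all probes at that cut is not given here, and an unadjusted p of 0.0490 (Rgs2) went with an adjusted p of 0.452. With the cortical marker covariate the median of the 16 genes was 0.20, with 5 of the 16 below 0. Without METH array 2 it was 0.53, with 1 below 0. The gene that passed was Nfil3, a bZIP transcription factor gene (1.88 ± 0.15 SE, adjusted p = 2.76e-05). Rasd1, a Ras-like G protein gene, had 0.80 (adjusted p = 0.0548) and Errfi1, an inhibitor of EGF receptor signalling, 0.77 (adjusted p = 0.173). Both had every METH array above every saline array, as had 1.96% of all probes tested. Rasl11a had 0.82 (adjusted p = 0.135). Pcdh8, a cadherin made with activity, had 0.021 and the neuropeptide precursor gene Vgf 0.54 (adjusted p = 0.380). None of 9 tested upstream factors passed (limma, 2 at an unadjusted p under 0.05), where Srf, a factor of many early genes, had 0.17, the repressor gene Bhlhe40 0.77 (adjusted p = 0.123), Rps6ka5, which encodes the CREB kinase MSK1, -0.60 (adjusted p = 0.215) and Camk4 0.30.

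Without METH array 2, where 2.5% of all probes passed in either direction, 2 genes of BDNF and TrkB signalling rose and 1 fell, 4 of the other effectors rose, and 1 upstream factor rose and 1 fell. In that fit 1 Homer partner and 1 pentraxin partner rose as well.

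**Figure D4:**
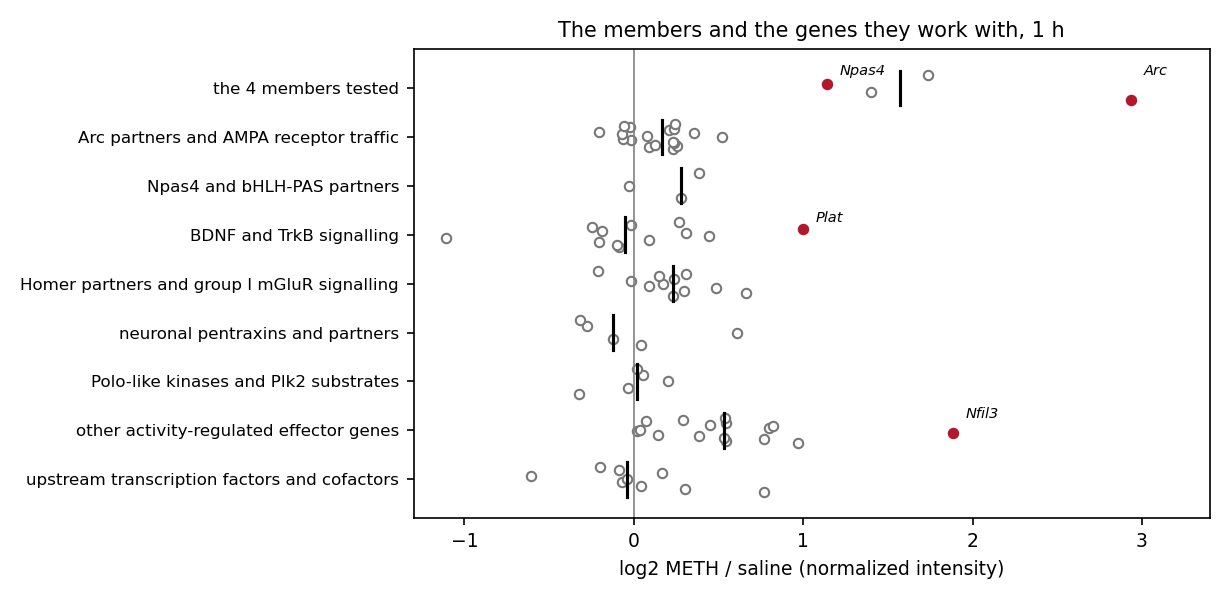
Log2 fold change of METH over saline (horizontal axis) for each tested gene, by list (rows, with the members on top); red points had an adjusted p under 0.05 and vertical bars mark list medians. Arc lies farthest to the right at 2.94, and outside the members Plat and Nfil3 are the red points.

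The genes most like Arc and Npas4 over the 9 arrays were ranked by how near their log2 deviations from the saline mean were in size. Likeness was the root mean square difference of these deviations, over 7198 genes. It depends largely on the size of the METH difference and does not show whether genes vary together between arrays. For Npas4 that size depends on how values near background are treated. Nearest to Arc were the zinc finger gene Egr4 at 0.30, Egr2 at 0.40 and the MAP kinase phosphatase gene Dusp1 at 0.40. Nearest to Npas4 were Nfkbia, the inhibitor of NF-kappaB, at 0.17, Vps37b, an endosomal sorting gene, at 0.17 and the chaperone gene Dnajb5 at 0.27. Arc and Npas4 were 1.38 apart on the same measure.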

How the data were processed

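Total RNA was measured on 1-colour Illumina beadchips. The deposited intensities were made by the authors with BeadStudio, per the submitters' processing notes, and were background-subtracted (some lie below 0) and left unscaled. Each comes with a deposited detection p-value per probe and array. The series' other table held the same intensities (largest difference 0). Intensities of the 9 arrays of 1 h were background-corrected and quantile-normalized with neqc in limma 3.58.1 (R 4.3.3), with an offset of 16 before log2. A probe counted as above background at a detection p under 0.05, and those above it on at least 4 of 9 arrays were tested (9987 of 22523). The two-sided test was lmFit with eBayes (trend along intensity), p-values were adjusted by Benjamini-Hochberg over every probe tested, and the script was tested on simulated data. Single genes were also tested with an exact permutation test over 126 assignments. The platform annotation gave names for 13793 probes. In lists the brightest probe stood for a gene. Counts of list genes at an unadjusted p under 0.05 are given without the share of all probes at that cut, so they are not read as results. At most 4 genes per list were named, by smallest p, and 3 genes per called member by likeness. Ntrk2, Grm5, Sipa1l1, Pcdh8, Vgf, Neurod6, Lamp5 and the genes of the closing observations were picked with their values known. The members and lists were chosen with earlier results of these data known. Alternatives were other background correction, scaling, filters and moderation, array weights, a block for slide or for replicate number, each slide alone, the cortical marker covariate and single arrays left out. Precision is limited by the number of arrays: 95% intervals had a median width of ±0.337 (log2).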

Additional observations from a re-analysis of the deposited data

Results flagged for a closer look

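Npas4 and Bdnf each had 1 saline array apart from the other 3, which was saline array 4 for both. For Npas4 its gap to the next array took up 0.857 of the range of the 4 saline arrays, and for Bdnf 0.909, both above the 95% critical value of Dixon's test. The other 3 saline values of Npas4 were not above background and lay at 4.70 to 4.78 after normalization. So small a spread near background raises the ratio. METH array 2 was not flagged for Bdnf (0.632) or Nptx2 (0.548), where the critical value was 0.71. Chance flags about 1 in 20 groups, and 10 groups were examined. Without saline array 4 the log2 fold changes were 1.28 for Npas4 (limma, adjusted p = 0.000358) and 1.56 for Bdnf (adjusted p = 0.222).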

How the results depend on the processing

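Arc passed under all 22 alternatives, with log2 fold changes of 2.52 to 3.42, and Npas4 under 21, the exception being the arrays of slide 2 at 1.04. Bdnf and Nptx2 did not pass under 19 alternatives each and passed under 3. These were unscaled intensities (1.95 and 2.28), array weights (1.48 and 2.04) and leaving out METH array 2. Over single arrays left out, Bdnf ranged from 1.15 to 1.82 and Nptx2 from 1.51 to 2.11. The members that passed numbered 4 in unscaled intensities, 4 with array weights, 1 within slide 2 and 2 to 4 with single arrays left out, against 2 as reported. The probes that passed numbered 52 as reported, 225 in unscaled intensities, 85 with median scaling, 251 with array weights, 16 within slide 2 and 31 to 250 with single arrays left out (31 without saline array 2, 33 without saline array 3 and 250 without METH array 2, with all 52 among the 250). Higher calls were 159 of the 251 and 224 of the 225. Unscaled intensities moved the median of all probes to 0.23 and median scaling to 0.11, relative to which Arc stood at 3.17 and 2.99, Npas4 at 1.48 and 1.07, Bdnf at 1.71 and 1.41 and Nptx2 at 2.05 and 1.78. With the replicate number as a block 82 probes passed, Arc and Npas4 among them at 3.09 and 1.14, and Bdnf (1.15) and Nptx2 (1.66) did not. Same-numbered arrays had deviations that correlated at 0.0721, 0.0953, 0.0801 and 0.247, and not every METH array correlated best with its own number, so the numbers are not taken as pairs. The exact permutation p of Bdnf was 0.0238 in deposited intensities. Fewer arrays enter the fits within slides; the cause of the other changes was not tested. The array's signal over background limits Plk2 and the saline level of Npas4.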

Other observations

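Several genes near the members in function passed when METH array 2 was left out (limma, 8 arrays) and not with the cortical marker covariate, where the sizes of their log2 fold changes were smaller. Nptxr had a log2 fold change of 0.85 without METH array 2 (adjusted p = 0.0177) and 0.054 with the covariate. Dlgap1 had 0.91 (adjusted p = 0.0402) and -0.099, and Adcyap1, which encodes the neuropeptide PACAP, 1.44 (adjusted p = 0.00333) and -0.30. Dclk1, a doublecortin-like kinase gene, had 0.72 (adjusted p = 0.0488) and -0.040, and Nsmf 0.63 (adjusted p = 0.0493) and -0.058. Ngfr was lower without METH array 2 at -1.27 (adjusted p = 0.0399) and stood at -0.59 with the covariate (adjusted p = 0.620). Rasd1 had 0.85 (adjusted p = 0.0223) and 0.56 (adjusted p = 0.354). Bhlhe40 had 0.90 (adjusted p = 0.0101) and 0.35, and Rps6ka5 -0.72 (adjusted p = 0.0426) and -0.28. By contrast Nfil3 had 1.78 without METH array 2 and 2.16 with the covariate (adjusted p = 2.62e-05 and 1.15e-05). Passing with the covariate but not without METH array 2 were Rasl11a at 1.14 (adjusted p = 0.0432) and Rgs2, a regulator of G protein signalling, at 0.94 (adjusted p = 0.0262). These genes were picked with their values known. Among METH arrays the centred covariate was also lowest on METH array 2 (-0.55, against 0.13 to 0.93 on the others). A gene that passes only without that array can therefore shrink under the covariate through this choice alone. The fits are not independent of each other, and their pairing is no added support.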
